A study of Mus musculus with 12 samples.

Results

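The genes described here are the cytosolic ribosomal protein genes of the mouse, the Rpl, Rps, Rpsa and Rplp genes whose products make up the large and small subunits of the cytosolic ribosome. They were chosen by name: a row of the count table entered when its gene symbol had the form Rpl or Rps with a number and at most a short a, l or x ending, or was Rpsa or Rplp0 to Rplp2, and its gene was annotated as protein coding. Of 78334 rows, 84 symbols had this form. Of these, 3 (Rps4l, Rpl6l and Rpl32l) belong to genes that are not protein coding, which left 81 genes, 50 of the large and 31 of the small subunit. RNA-seq read counts of the hypothalamus, the brain region that controls appetite and energy balance, were available for 12 libraries in 5 groups.

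The study asked how obesity from a high-fat diet (HFD), and plant compounds given to mice with obesity, change the hypothalamic transcriptome. All mice were C57BL/6 males, 8 weeks old at the start. Mice with obesity ate a diet with 60% of its energy as fat. In the groups on that diet, Ob + RSV (3 libraries) received resveratrol at 2.25 mg/kg, Ob + EAE (2 libraries) aged garlic extract at 200 mg/kg, Ob + CUR (1 library) curcumin at 50 mg/kg, and Ob (3 libraries) the vehicle. The control group C (3 libraries) ate standard chow and also received the vehicle. Gavage was given daily for 28 days. The labels set the diet at 8 weeks in total and the start of gavage at its week 8, when the mice were 16 weeks old, so the length of the diet at sampling cannot be read from them. Each compound was given at 1 dose. The study's methods call the libraries of C, Ob and Ob + RSV biological replicates, and whether those of Ob + EAE came from separate animals is not given in the sources used here.

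Each cytosolic ribosome needs 1 copy of nearly every ribosomal protein, and the genes are therefore among the most uniformly and highly expressed of any cell. Their mRNAs are short and begin with a run of pyrimidines (C and T in the DNA) called a terminal oligopyrimidine (TOP) tract. Through this tract the kinase mTOR and the RNA-binding protein LARP1 tie their translation to nutrients and growth signals, a pathway that hypothalamic neurons use in sensing energy state. Most of the genes have also left many processed pseudogenes, intron-free copies of the mRNA elsewhere in the genome, a feature that bears directly on how their reads can be counted.

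To show what the start of these genes looks like, 40 bases around the annotated start are given for 9 of them, 20 before it and 20 from it on. They comprise Rpl14, Rps24 and Rps15, which are among the 5 genes with the smallest p-values below, Rps9, Rps2, Rps3 and Rpl27a, which fell with them, and Rps6 and Rplp2, which are described for their function. Sequences are RefSeq's, on build GRCm38.p6, 5′ to 3′ on the gene's strand, and capitals mark the longest run of C and T.
Rpl14 (chr9:120571497-120571536, plus strand): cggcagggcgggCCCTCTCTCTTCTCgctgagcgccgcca
Rpl27a (chr7:109519175-109519214, plus strand): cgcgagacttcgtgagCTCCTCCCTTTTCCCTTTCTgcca
Rps24 (chr14:24490658-24490697, plus strand): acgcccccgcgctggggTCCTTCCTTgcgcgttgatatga
Rps9 (chr7:3704021-3704060, plus strand): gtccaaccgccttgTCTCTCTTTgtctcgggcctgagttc
Rps6 (chr4:86857348-86857387, minus strand): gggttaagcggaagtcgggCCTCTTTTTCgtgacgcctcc
Rplp2 (chr7:141447631-141447670, plus strand): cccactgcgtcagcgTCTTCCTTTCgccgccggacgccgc
Rps15 (chr10:80292411-80292450, plus strand): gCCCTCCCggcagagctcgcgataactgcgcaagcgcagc
Rps2 (chr17:24720043-24720082, plus strand): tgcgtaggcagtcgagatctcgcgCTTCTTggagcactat
Rps3 (chr7:99483690-99483729, minus strand): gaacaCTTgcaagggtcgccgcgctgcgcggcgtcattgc

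In the first 6 windows the run had 9 to 20 bases and spanned the annotated start. In Rps15, Rps2 and Rps3 it had 7, 6 and 3 bases. RefSeq promoters matched 61 of the 81 genes, with 73 start sites. A run of at least 8 C or T within these 40 bases was found at 41.1% of the 73 starts, against 16.0% of all 32851 starts, whereas a run of at least 8 A or G on the same strand was found at 6.85% against 17.7%. Over the full 300 bases of each promoter, on both strands, CCGGAA was in 46.6% of the ribosomal protein promoters against 14.9% of all, AAGATGGC in 9.59% against 2.75%, GGGCGG in 58.9% against 35.7%, and TATAAA in 8.22% against 13.6%. These are matches of letters, and the motifs can overlap at their ends, as CCGGAA and AAGATGGC do in AA.

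Total counts ran from 15655156 to 26284661 per library, and 24450 to 38081 genes had reads. Markers of neurons summed to 1966 to 2747 CPM (reads per 1000000 counted reads) in the 12 libraries. Markers of the hypothalamus were present in every library, at 1008 to 1973 CPM in Ob + RSV, 902 to 1081 in Ob + EAE, 242 in Ob + CUR, 1271 to 2850 in Ob and 1272 to 1903 in C, so Ob + CUR had the lowest sum. Endothelial markers summed to 39.1 to 55.5 CPM in Ob + RSV, 159 to 161 in Ob + EAE, 177 in Ob + CUR, 34.1 to 88.3 in Ob and 34.4 to 70.5 in C. Oligodendrocyte markers summed to 3956 to 4261 CPM in Ob + EAE and 3830 in Ob + CUR, against 4845 to 5402 in Ob and 3882 to 6180 in C. All 4 markers of neurons, all 4 of oligodendrocytes and all 3 of endothelium had reads in every library, as did 7 of the 8 of the hypothalamus. Thalamus markers summed to 373 to 379 CPM in Ob + EAE, against 216 to 317 in Ob and 320 to 529 in C, and choroid plexus markers to 35.3 to 36.7 CPM in Ob + EAE, against 15.9 to 27.2 in Ob and 13.8 to 42.6 in C. Mitochondrial genes took 4.12% and 3.94% of counts in Ob + EAE, against 4.94% to 6.80% in Ob and 5.12% to 7.40% in C. In Ob + EAE 37165 and 38081 genes had reads, against 26123 to 32664 in Ob and 25979 to 36541 in C. Ob + CUR had 480 CPM of thalamus and 55.3 CPM of choroid plexus markers, 3.79% of mitochondrial counts and 37598 genes with reads. Ob + RSV had 274 to 326 CPM, 24.3 to 31.3 CPM, 5.27% to 6.18% and 24450 to 32705 genes. The part of these differences in the results below was not tested. Replicates differed by more than counting noise, with a chi-square per degree of freedom of 6.51 between the Ob + EAE libraries and 22.4 to 73.2 between the replicates of the other groups. The Ob + EAE libraries were thus more alike than the replicates of any other group.

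The ribosomal protein genes had reads almost throughout, but at very unequal levels. Reads were present in all 12 libraries for 79 of the 81 genes. The exceptions were both paralogs known from testis: Rpl10l had no read in any library, which allows at most 3 reads per library, and Rpl39l had 9 reads in total. Dividing mean CPM by transcript length, the median of the 80 genes with reads was 25.3 CPM per kb. The highest levels per length were 693 CPM per kb for Rpl41, the smallest ribosomal protein, 573 for Rpl8, which lies near the peptidyl transferase centre, and 521 for Rps15, a protein of the head of the small subunit. The lowest after the 2 testis paralogs was 0.31 CPM per kb for Rpl3l, the muscle paralog of Rpl3. The 10 genes with the most reads held 57.4% of all reads of the 81, and 25 genes averaged under 10 CPM. The ranking was shared by the libraries, with a Spearman correlation of CPM over the 81 genes of at least 0.951 between any 2 libraries, a description across genes that share transcript length and sequence.

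A large part of this inequality lay in rows annotated as pseudogenes or named as such by a symbol with -ps. Of the 81 genes, 78 shared at least one stretch of 50 identical bases with another gene, and 51 shared such stretches over at least 50% of their transcript. When each pseudogene row was assigned to the ribosomal protein gene with which it shared most, 1094 rows went to 78 genes and 890 of them had reads. These rows held 3252738 reads, against 1296936 reads in the ribosomal protein genes themselves, and they held more reads than the gene for 57 of the 81. Rpl3, a core protein of the large subunit, had 11937 reads in its own row and 159735 in Rpl3-ps1 alone. Rps29, a zinc-binding protein of the small subunit, had 816 reads, with 52991 in Gm14303. Rpl24, at a bridge between the subunits, had 411 reads and its copies 40504. At the other end, Rps3 and Rps9 had 102119 and 45845 reads of their own and 169 and 0 reads in copies. Where bases are identical, reads of a gene and its copy cannot be told apart, and how the counting treated reads that fit several places is not given in the sources used here.

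Adding the reads of the copies to their gene evened out the levels. The median of the 79 genes with at least 10 reads was 292 CPM per kb with the copies and 25.8 CPM per kb without, and 68 of the 79 reached 50 CPM per kb, against 30 without. Copies made up 69.6% to 72.8% of the combined reads in every library, so the division of the summed reads differed little between libraries. For single genes it could differ. Rpl24 alone had 4.14 CPM in Ob + RSV replicate 2 and 0.67 CPM in Ob replicate 1. With its copies it had 203 and 268 CPM in these libraries. Values are given for the gene alone below, since the gene is what the rows name, with the combined values beside them.

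**Figure D1:**
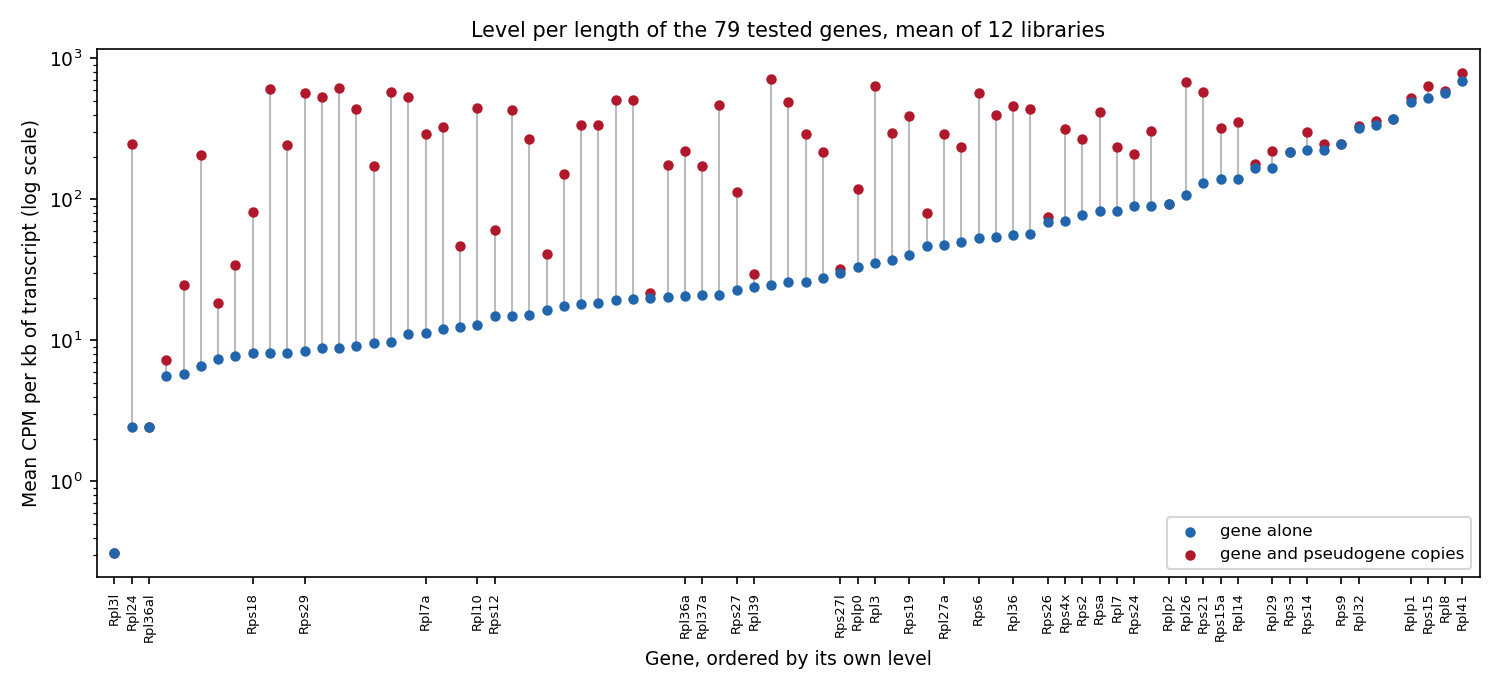
Mean level per transcript length over 12 libraries (CPM per kb, log scale) of the 79 ribosomal protein genes with at least 10 reads, ordered by the level of the gene alone (blue), with the level after adding the reads of pseudogene copies (red). Rpl24, near the left, rises (2.43 CPM per kb alone, 247 with copies), whereas Rpl3l and Rpl36al beside it and Rps3 and Rps9 on the right barely move. Genes named in the text are labelled.

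Summed over the 81 genes, ribosomal protein reads took less of the Ob + EAE libraries than of any library of Ob, C or Ob + RSV. The share of all counts was 0.362% and 0.312% in Ob + EAE, 0.366% in Ob + CUR, 0.916%, 0.513% and 0.552% in Ob, and 0.456%, 0.504% and 0.628% in C. In Ob + RSV it was 0.715%, 0.581% and 0.413%. Group means were 0.569% ± 0.151 in Ob + RSV (SD, n = 3), 0.337% ± 0.0357 in Ob + EAE (SD, n = 2), 0.660% ± 0.222 in Ob and 0.529% ± 0.0888 in C (SD, n = 3 each). Ob replicate 1 stood well above both other Ob libraries, and Ob + RSV, Ob and C overlapped one another. The 95% Wilson interval of each share was narrow, such as 0.309% to 0.314% for Ob + EAE replicate 2, and covers counting error only. With the copies the shares were 2.54%, 2.10% and 1.42% in Ob + RSV, 1.20% and 1.03% in Ob + EAE, 1.20% in Ob + CUR, 3.30%, 1.87% and 1.93% in Ob, and 1.60%, 1.85% and 2.13% in C, in which the Ob + EAE libraries were again below every Ob + RSV, Ob and C library. In whole tissue, fewer cells of a type and less RNA per cell cannot be told apart.

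**Figure D2:**
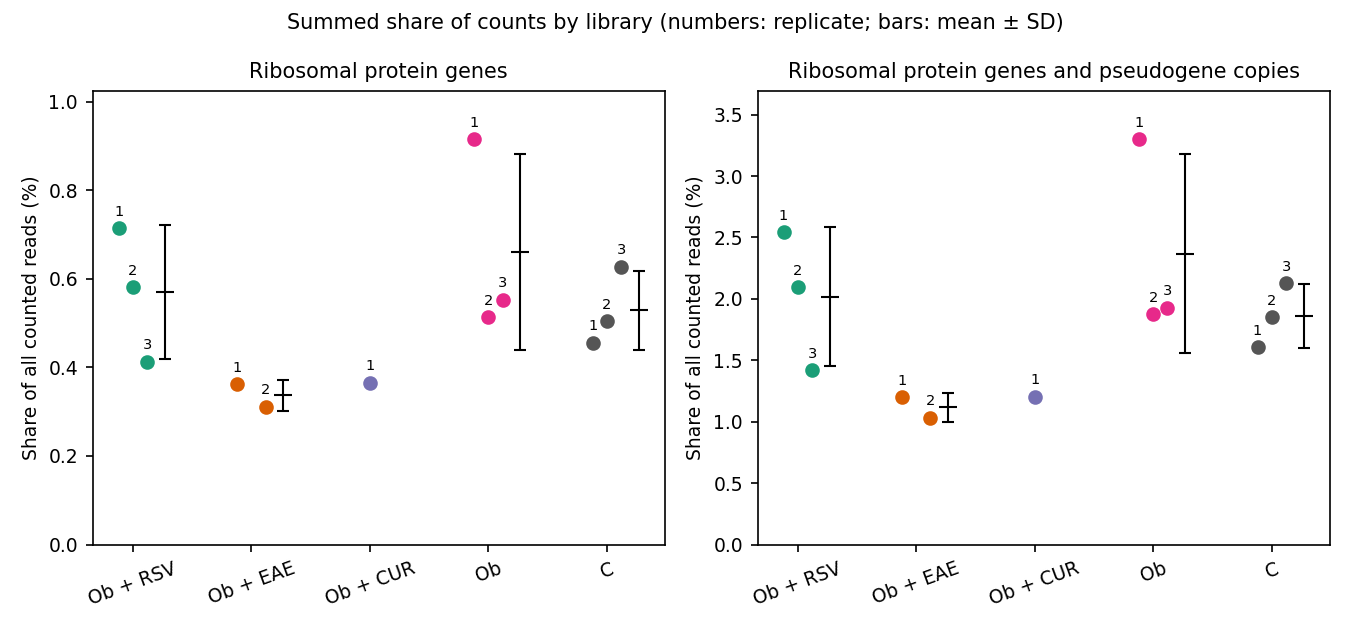
Share of all counted reads (%) taken by the 81 ribosomal protein genes (left) and by the genes with their pseudogene copies (right), 1 point per library labelled with its replicate number, with bars for mean ± SD. The Ob + EAE and Ob + CUR libraries lie at the bottom (0.312% to 0.366% on the left) and Ob replicate 1 at the top (0.916%).

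The clearest difference among the groups was between Ob + EAE and Ob, where 20 of the 79 genes tested fell and none rose, a count that ran between 0 and 28 when libraries were left out or the fit was set otherwise (edgeR's quasi-likelihood test, at an adjusted p below 0.05 with a log2FC of 1 or more in size). Over all 36164 genes tested, 1.84% passed this threshold in either direction and 1.08% passed it as lower. The 20 comprised 8 of the 48 large-subunit and 12 of the 31 small-subunit genes tested. In all, 77 of the 79 had a negative log2FC, and the median was −0.83, against 0.05 for all genes. An unadjusted p under 0.05 in the lower direction was reached by 48 of the 79, against 6.48% of all genes, and both Ob + EAE libraries were below the 3 Ob libraries in 57 of the 79, against 15.5% of all genes. Such overlaps were counted on CPM after TMM scaling.

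Rplp1, an acidic protein of the ribosomal stalk that recruits elongation factors, had the smallest p. It had 121 and 98.4 CPM in Ob + EAE, against 526, 264 and 240.3 CPM in Ob, a log2FC of −1.73 (SE 0.31, adjusted p 0.0056). Its level was 117 CPM in Ob + CUR and 215, 254 and 292 CPM in C, so both Ob + EAE libraries and Ob + CUR were lower than every Ob and C library. Rplp0, which anchors the stalk, also fell: it had 28.9 and 23.5 CPM in Ob + EAE, against 79.2, 49.2 and 38.4 CPM in Ob (log2FC −1.17, SE 0.32, adjusted p 0.0431). Rplp2, the partner of Rplp1 in the stalk, had 22.4 and 19.2 CPM in Ob + EAE, against 93.2, 31.6 and 30.4 CPM in Ob, and its log2FC of −1.41 (SE 0.39) missed the threshold at an adjusted p of 0.0516. The groups did not overlap for any of the 3 stalk genes.

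The next genes by p were Rps14, Rpl14, Rps24 and Rps15. Rps14, a protein of the platform of the small subunit, had 74.6 and 63.2 CPM in Ob + EAE, against 226, 140.0 and 156 CPM in Ob (log2FC −1.41, SE 0.27, adjusted p 0.0084). Rpl14, a large-subunit protein whose start carries the 14-base run shown above, had 75.05 and 60.1 CPM in Ob + EAE, against 270.3, 132 and 134 CPM in Ob (log2FC −1.49, SE 0.33, adjusted p 0.0158). For both genes the Ob + EAE libraries were lower than all 3 Ob libraries, and Ob replicate 1 was the highest. Rps24, a small-subunit protein mutated in Diamond-Blackfan anaemia in humans, had 85.4 and 71.6 CPM in Ob + EAE, against 253, 138 and 150.05 CPM in Ob (log2FC −1.28, SE 0.29, adjusted p 0.0165). Rps15 had 152 and 128 CPM in Ob + EAE, against 608, 259 and 238 CPM in Ob (log2FC −1.49, SE 0.34, adjusted p 0.0180). The groups did not overlap for either gene, and the spread among the Ob libraries exceeded that between the Ob + EAE libraries in each case.

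Rpsa, a small-subunit protein also known as the laminin receptor precursor, fell as well: it had 82.0 and 70.1 CPM in Ob + EAE, against 226, 121 and 135 CPM in Ob (log2FC −1.16, SE 0.30, adjusted p 0.0371). Rps6, the small-subunit protein that S6 kinases phosphorylate downstream of mTOR, had 32.2 and 30.5 CPM in Ob + EAE, against 69.7, 35.9 and 51.9 CPM in Ob, and its log2FC of −0.82 (SE 0.27) did not pass at an adjusted p of 0.110. Its groups did not overlap, but the lowest Ob library was close to the Ob + EAE libraries. Other genes that fell included Rps2, Rps3, Rps9, Rps19, Rps26, Rpl26, Rpl27a, Rpl29, Rpl32 and Rpl36. Just outside the threshold lay Rpl8, with an adjusted p of 0.0501. The 2 genes with a positive log2FC were Rps15a (0.19) and Rps18 (0.14), both of the small subunit, and neither passed the test.

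Of the X-linked genes Rps4x, Rpl10, Rpl36a and Rpl39, none passed. Rps4x had 49.1 and 44.3 CPM in Ob + EAE, against 97.0, 62.4 and 92.9 CPM in Ob (log2FC −0.92, SE 0.27, adjusted p 0.0618). Rpl10, which joins the large subunit late in its assembly, had a log2FC of −0.67 (SE 0.36), Rpl36a −0.90 (SE 0.38) and Rpl39, of the exit tunnel, −0.62 (SE 0.43). For the first 3 of these genes the Ob + EAE libraries were below all Ob libraries, and for Rpl39 they were not.

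Of the paralogs of other ribosomal protein genes, Rpl3l and Rpl36al were among the lowest per length, whereas Rps27l was not. Rps27l, a paralog of Rps27 induced by p53, had 8.85 and 9.52 CPM in Ob + EAE, against 27.2, 13.9 and 13.6 CPM in Ob, with a log2FC of −1.07 (SE 0.33, adjusted p 0.0847). Its parent Rps27 had 5.49 and 4.83 CPM in Ob + EAE, against 13.0, 5.67 and 13.6 CPM in Ob (log2FC −1.12, SE 0.41, adjusted p 0.153). Neither passed, and in both the Ob + EAE libraries were below all Ob libraries. Rpl36al, a paralog of Rpl36a, had the widest spread of all 79 genes, with 0.0459 CPM in Ob + RSV replicate 2 and 2.68 CPM in Ob replicate 1. Rpl3l ran from 0.19 to 0.69 CPM over the 12 libraries and its log2FC of −0.91 had an SE of 1.35, so no difference was detectable at this depth.

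Whether a gene passed moved with its level. Of the 14 genes averaging at least 100 CPM, 11 fell, of the 25 at 20 to 100 CPM 9 fell, and of the 40 under 20 CPM none passed, with median log2FC of −1.19, −0.92 and −0.67. Shared sequence moved with it too: 12 of the 28 genes with under 50% of shared 50-base stretches fell (median log2FC −1.07), and 8 of the other 51 (median −0.73). With the copies, 51 of the 79 genes fell, against 0.884% of all 35516 rows then tested, all 79 had a negative log2FC, and the median was −1.17. The Ob + EAE libraries were below the Ob libraries in 75 of 79, against 14.5% of all rows.

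The genes that had stood apart when counted alone took the same direction with their copies. Rpl3 alone had 46.8 and 44.1 CPM in Ob + EAE, against 50.8, 32.3 and 54.7 CPM in Ob, which overlap. With its copies it had 653 and 573 CPM in Ob + EAE, against 1232, 810 and 957 CPM in Ob, a log2FC of −0.76 (SE 0.26, adjusted p 0.127). Rps15a, a small-subunit protein, alone had 92.9 and 96.7 CPM in Ob + EAE, against 73.1, 67.2 and 97.7 CPM in Ob. With its copies it had 158 and 152 CPM in Ob + EAE, against 305, 178 and 216 CPM in Ob (log2FC −0.65, SE 0.24, adjusted p 0.163). For both genes, the combined libraries of the groups no longer overlapped, though neither value passed. Rps29 alone had 2.37 and 2.32 CPM in Ob + EAE, against 1.85, 1.54 and 4.599 CPM in Ob, and with its copies 124 and 111 CPM, against 490.1, 159 and 208 CPM (log2FC −1.35, SE 0.36, adjusted p 0.0400). Rpl24 with its copies had 98.1 and 88.2 CPM in Ob + EAE, against 268, 181 and 197 CPM in Ob (log2FC −1.27, SE 0.27, adjusted p 0.0127). Rps29 and Rpl24 thus fell when the reads of their copies were counted with them and did not pass alone, and the difference between these ways of counting was not tested. The smallest p with the copies belonged to Rpl37a of the large subunit, with 43.4 and 36.8 CPM in Ob + EAE, against 197, 93.6 and 97.9 CPM in Ob (log2FC −1.76, SE 0.31, adjusted p 0.0047), a gene chosen after its values were seen.

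These calls depended on Ob replicate 1 and on the settings of the fit. Without Ob replicate 1, 0 genes passed alone and 0 passed with the copies. In these fits 28 of the 79 (3.48% of all genes) and 64 of the 79 (3.81% of all genes) had an unadjusted p under 0.05 in the lower direction, and the medians were −0.60 and −0.81. With edgeR's own filter on low counts (filterByExpr) 2 genes passed, against 24 of all genes as lower. With the libraries of the 2 groups alone 9 passed, against 269. Without Ob + EAE replicate 1 and without Ob + EAE replicate 2, 3 and 0 genes passed, in fits where the lone Ob + EAE library is assumed to vary like the other groups.

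**Figure D3:**
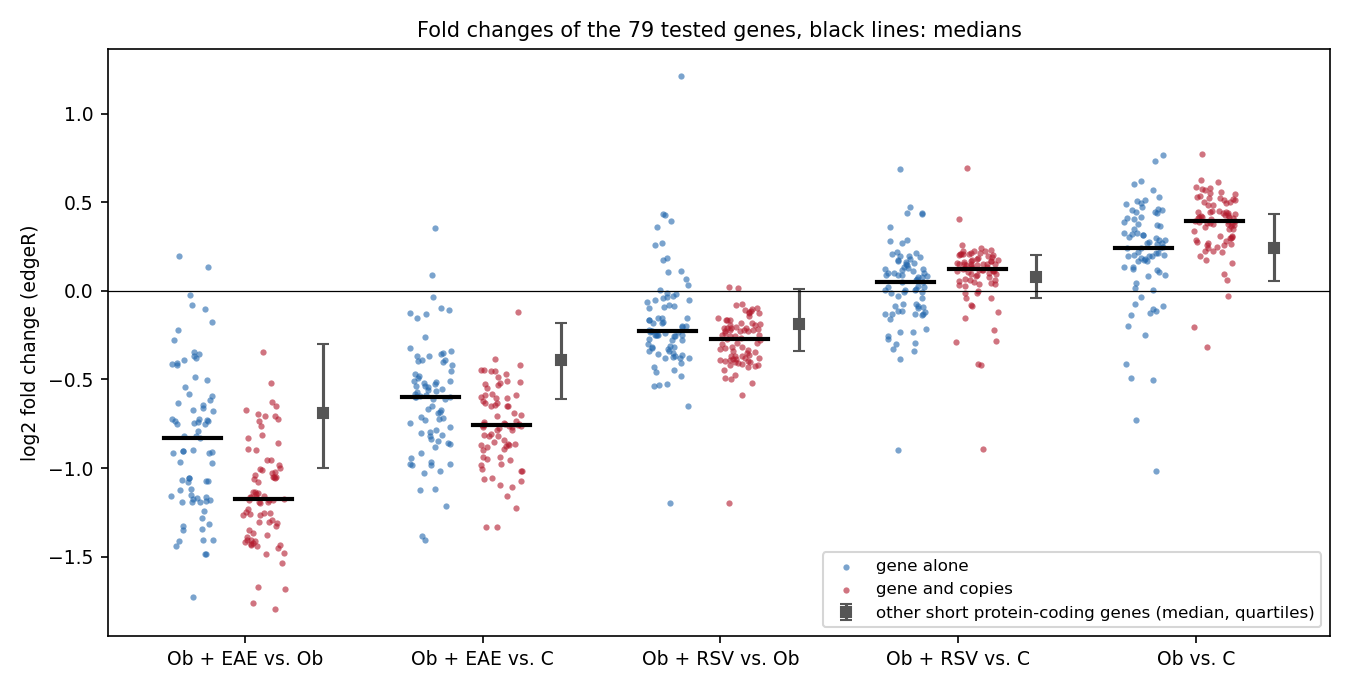
log2 fold changes (edgeR) of the 79 ribosomal protein genes in 5 comparisons, 1 point per gene, for the gene alone (blue) and with its pseudogene copies (red), with medians as black lines, beside the median and quartiles of other protein-coding genes with a coding length of up to 450 nt (grey). The medians lie lowest in Ob + EAE vs. Ob (−0.83 alone, −1.17 with copies) and are above 0 in Ob vs. C (0.24 and 0.40).

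Short genes in general moved in the same direction, so the ribosomal protein genes are set beside genes of like coding length (median 453 nt) with at least 1000 reads. In Ob + EAE vs. Ob, 660 of the 759 other protein-coding genes of up to 450 nt were lower, with a median log2FC of −0.69, and 17.0% of them fell. The 35 ribosomal protein genes of that length had a median of −0.97, and 10 (28.6%) fell. Between 450 and 900 nt, the 2288 other genes had a median of −0.33 and 3.45% fell, whereas the 36 ribosomal protein genes had a median of −0.73 and 9 fell. From 900 to 1800 nt the medians were −0.75 for 3 ribosomal protein genes and −0.05 for 4639 other genes. The 4427 other genes over 1800 nt had a median of 0.30. The log2FC of other genes thus ran from negative to positive with coding length, and its part in the values of the ribosomal protein genes was not tested. The libraries were also set beside each other. The mean deviation of log2 CPM from the 12-library mean was −0.38 and −0.60 in Ob + EAE, −0.35 in Ob + CUR and 0.66 in Ob replicate 1 for the ribosomal protein genes, and −0.27 and −0.41, −0.30 and 0.48 for the other genes of up to 450 nt. The sets differed most in C replicate 3, at 0.51 for the ribosomal protein genes and 0.14 for the other short genes. C replicate 1 was at −0.21 and −0.023, and Ob replicate 2 at −0.07 and 0.14, with opposite signs. In Ob + RSV the sets were closer. Its 3 libraries were at 0.39, 0.057 and −0.10 for the ribosomal protein genes and 0.32, 0.013 and −0.11 for the other short genes.

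**Figure D4:**
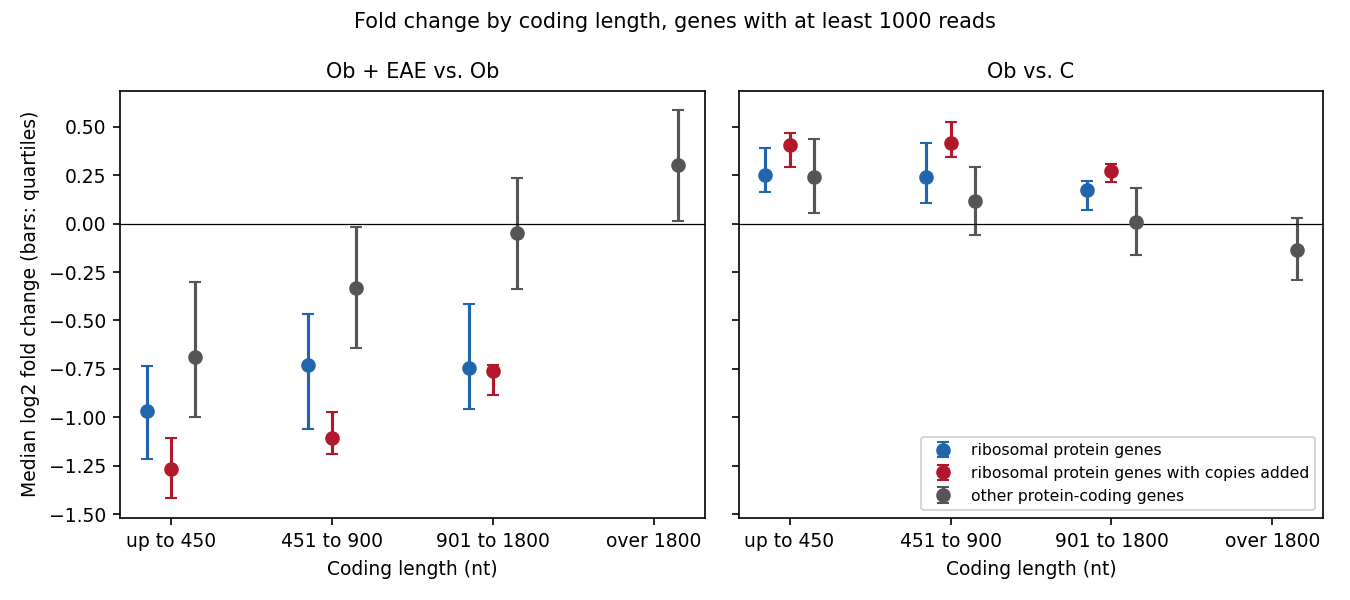
Median log2 fold change, with quartiles as bars, by coding length for genes with at least 1000 reads, in Ob + EAE vs. Ob (left) and Ob vs. C (right), for ribosomal protein genes alone (blue), with their copies (red) and for other protein-coding genes (grey). In Ob + EAE vs. Ob the grey medians run from −0.69 for the shortest to 0.30 for the longest genes, and the blue ones lie at −0.97, −0.73 and −0.75.

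Other genes, many of them of the translation machinery, were compared in the same fit, by lists written from the known roles of the genes. Of 6 tested ribosomal proteins that the naming rule leaves out, such as Fau, whose product is made fused to a ubiquitin-like protein, all 6 had a negative log2FC and 1 fell, Rps27rt (log2FC −1.54, SE 0.36, adjusted p 0.0198). Of 20 listed genes of the TOP class, translation factors and others such as Npm1 and Hnrnpa1, 17 had a negative log2FC (median −0.56). Of the 20, 2 fell, the elongation factor subunit Eef1b2 (log2FC −1.08, SE 0.25, adjusted p 0.0180) and the initiation factor subunit Eif3k (log2FC −1.09, SE 0.27, adjusted p 0.0251). Of 30 ribosome biogenesis genes, which act in the nucleolus and in subunit assembly, 24 had a negative log2FC with a median of −0.18, and none passed, with 8 at an unadjusted p under 0.05. Of 16 genes that control TOP translation none passed, and their median was 0.25. Among them Mtor had a log2FC of 0.68 (SE 0.21, adjusted p 0.0854) and Rps6kb2, an S6 kinase, −0.90 (SE 0.28, adjusted p 0.0938). Outside the cytosolic ribosome, 16 of 78 mitochondrial ribosomal proteins fell (median −0.72), as did 33 of 80 nuclear genes of oxidative phosphorylation, of which 75 had a negative log2FC. No difference between lists was tested.

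In Ob + EAE vs. C, 0 of the 79 genes passed, against 0.0138% of all genes, and DESeq2 also called 0. The log2FC was negative for 77 and the median was −0.60. An unadjusted p under 0.05 in the lower direction was found for 30 of the 79, against 2.20% of all genes, and the Ob + EAE libraries were below all 3 C libraries for 43, against 10.5%. Rplp1 had the smallest p, with 121 and 98.4 CPM in Ob + EAE, against 215, 254 and 292 CPM in C (log2FC −1.22, SE 0.31, adjusted p 0.406). With the copies 0 passed and the median was −0.76. An unadjusted p under 0.05 as lower was found for 60, against 672 of all 35516 rows. The libraries did not overlap for 74, against 9.80% of all rows. With the replicate number as a block 14 passed, all lower, against 181 of all 36164 genes as lower. Whether the numbers pair these libraries is not known, and deviations of same-numbered C and Ob + EAE libraries correlated at −0.23 and 0.071. Without C replicate 3 the median was −0.30 for the genes alone. In that fit 19 had an unadjusted p under 0.05 as lower, against 567 of all 35519 genes. Without Ob + EAE replicate 2, where the lone library of that group is again assumed to vary like the others, the median was −0.48.

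In Ob vs. C, the effect of the diet, 0 of the 79 genes passed by edgeR or by DESeq2, as did 0% of all 33534 genes. The log2FC was positive for 65 genes, with a median of 0.24, and 3 had an unadjusted p under 0.05 as higher, against 1.35% of all genes. All 3 were small-subunit genes. This count was 18 without C replicate 3, 17 without Ob replicate 3, 10 without Ob replicate 2 and 11 with the replicate block. The higher counts over all genes in these fits were, in that order, 960 of 32642, 946 of 32877, 482 of 32878 and 748 of 33534. For the ribosomal protein genes it was 1 without C replicate 1 or C replicate 2 and 0 without Ob replicate 1. Over all genes it was 358 of 32672, 161 of 32704 and 93 of 32654. Rps2, which lies by the mRNA entry site, had 146, 95.5 and 79.6 CPM in Ob, against 61.5, 64.2 and 75.04 CPM in C (log2FC 0.74, SE 0.23, adjusted p 1), without overlap. Rps3, at the mRNA entry channel, had 815, 424 and 437 CPM in Ob, against 356, 390.3 and 427 CPM in C, and Rps15 had 608, 259 and 238 CPM in Ob, against 223, 262 and 274 CPM in C. For Rps15 the libraries of Ob and C overlapped, and for Rps3 they overlapped in CPM but not after TMM scaling, with Ob replicate 1 far above the rest.

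Of the large subunit, Rpl8 had 872, 551 and 477 CPM in Ob, against 450.4, 444 and 489 CPM in C (log2FC 0.51, SE 0.27). The groups overlapped and Ob replicate 1 was the highest. The libraries did not overlap, with Ob higher, for 6 genes, against 3.86% of all genes. The direction of the whole set rested on single libraries: the median was 0.52 without C replicate 3 and −0.0031 without Ob replicate 1. It was −0.094 without C replicate 2, Ob replicate 1 and Ob + RSV replicate 2. These 3 libraries had the fewest genes detected in their groups. Other genes of up to 450 nt had a median of 0.24 in this comparison, like the 0.25 of the ribosomal protein genes of that length. With the copies 76 of the 79 had a positive log2FC, the median was 0.40 and again 0 passed.

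In Ob + RSV vs. Ob, 0 of the 79 genes passed by edgeR or DESeq2, as did 0% of all genes, and 0 had an unadjusted p under 0.05, against 3.16% of all genes in either direction. That last count was 17 without Ob + RSV replicate 1 and 10 without Ob replicate 3. It was 3 without Ob replicate 2 and 4 with the replicate block, and all of these were lower. The lower counts over all genes in these fits were, in that order, 1179 of 32917, 849 of 32877, 372 of 32878 and 849 of 33534. Among the 79 genes the log2FC was negative for 65, with a median of −0.23. Rps21, of the small subunit, had the smallest p: 68.4, 37.9 and 34.99 CPM in Ob + RSV, against 126, 38.6 and 51.5 CPM in Ob (log2FC −0.65, SE 0.32). Rpl41 had 406, 269 and 185 CPM in Ob + RSV, against 707, 226 and 278 CPM in Ob (log2FC −0.54, SE 0.32). For both, the groups overlapped and the highest value was Ob replicate 1. Without it the log2FC was positive, at 0.093 for Rps21 and 0.21 for Rpl41, and the median of the 79 genes was 0.08.

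Rpl24 had the largest log2FC in Ob + RSV vs. Ob, 1.21 (SE 0.70), from few reads: 1.83, 4.14 and 1.29 CPM in Ob + RSV, against 0.67, 1.10 and 1.28 CPM in Ob. The Ob + RSV libraries were all above the Ob libraries, with the lowest of them next to the highest Ob library. With its copies Rpl24 had 217, 203 and 143 CPM in Ob + RSV, against 268, 181 and 197 CPM in Ob, and the log2FC was −0.24. The last 2 of the 5 smallest p-values were those of Rps2 (log2FC −0.38, SE 0.23) and Rpl36a (log2FC −0.52, SE 0.34), neither past the test.

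In Ob + RSV vs. C, 0 of the 79 genes passed by edgeR or DESeq2, as did 0% of all genes, and 0 had an unadjusted p under 0.05, against 2.87% of all genes. Without C replicate 3 that count was 6 and without Ob + RSV replicate 3 it was 2, all higher. The higher counts over all genes in these fits were 463 of 32642 and 669 of 32687. Among the 79 genes the log2FC was positive for 48, with a median of 0.05. The smallest p-values were those of Rpl14 (log2FC 0.44, SE 0.28), Rps2 (0.36, SE 0.23), Rpl7a (0.43, SE 0.29), Rpl7 (0.29, SE 0.21) and Rps12 (0.44, SE 0.33). Rps2 and Rps12 belong to the small subunit and the others to the large. Rpl14 had 202, 241 and 92.2 CPM in Ob + RSV, against 107, 145 and 146 CPM in C, so that the Ob + RSV libraries spanned both ends of C. Rpl7a had 12.5, 12.5 and 11.6 CPM in Ob + RSV, against 7.67, 9.16 and 10.5 CPM in C, and Rps12 had 9.47, 8.22 and 7.94 CPM in Ob + RSV, against 5.45, 5.75 and 7.91 CPM in C. For these 2 genes the Ob + RSV libraries were all higher than C, within a fold that the test did not separate from the spread. These comparisons share libraries, so their values are not independent of one another.

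The single Ob + CUR library allows no test. Of the 79 genes, 72 were lower in it than the mean of Ob, against 44.2% of all genes with reads, 49 were lower than every Ob library, against 19.7%, 15 were at least 2-fold lower, against 11.7%, and 0 were at least 2-fold higher. The median log2 ratio was −0.62, against 0.12 for all genes. Rplp1, with 117 CPM in Ob + CUR against a mean of 343 CPM in Ob, had a log2 ratio of −1.55, and Rps15, with 151 CPM against 368 CPM, had −1.29. Both values of Ob + CUR lay between those of the 2 Ob + EAE libraries. The hypothalamic markers of this library were the lowest and its endothelial markers the highest of the 12, and their part in these ratios was not tested.

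Across all 12 libraries the genes varied together. The correlation of a gene's log2 CPM with the mean of the other ribosomal protein genes had a median of 0.82 over the 79 genes and was above 0.5 for 68. It was below 0 for 3, Rps15a (−0.27), Rps18 (−0.13) and Rpl3l (−0.01). Over 17016 other protein-coding genes the median correlation with the ribosomal protein mean was −0.09 and 3206 were above 0.5. The most alike of these were Cox7a2l (0.977), a factor of respiratory supercomplexes, Stmn1 (0.977), which destabilises microtubules, and Gtf2f2 (0.972), a subunit of the general transcription factor TFIIF. These correlations are over 12 points that share library depth and composition.

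Which library was highest depended on how the reads of copies were counted. Alone, 43 of the 79 genes were highest in Ob replicate 1 and 24 in C replicate 3. The 43 had a median of 51.7 CPM and the 24 a median of 10.4 CPM, with 71.9% of 50-base stretches shared. Rps29 was one of the 24, with 10.97 CPM in C replicate 3, and 1.49 and 1.02 CPM in the other C libraries. With the copies, 71 of the 79 were highest in Ob replicate 1 and 6 in C replicate 3, and 72 were lowest in Ob + EAE replicate 2, against 37 alone. The mean deviation of other protein-coding genes of up to 450 nt was also highest in Ob replicate 1 (0.48) and lowest in Ob + EAE replicate 2 (−0.41). How many other genes peaked in each library was not counted. Rps29 with its copies had 241, 272 and 242 CPM in C.

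**Figure D5:**
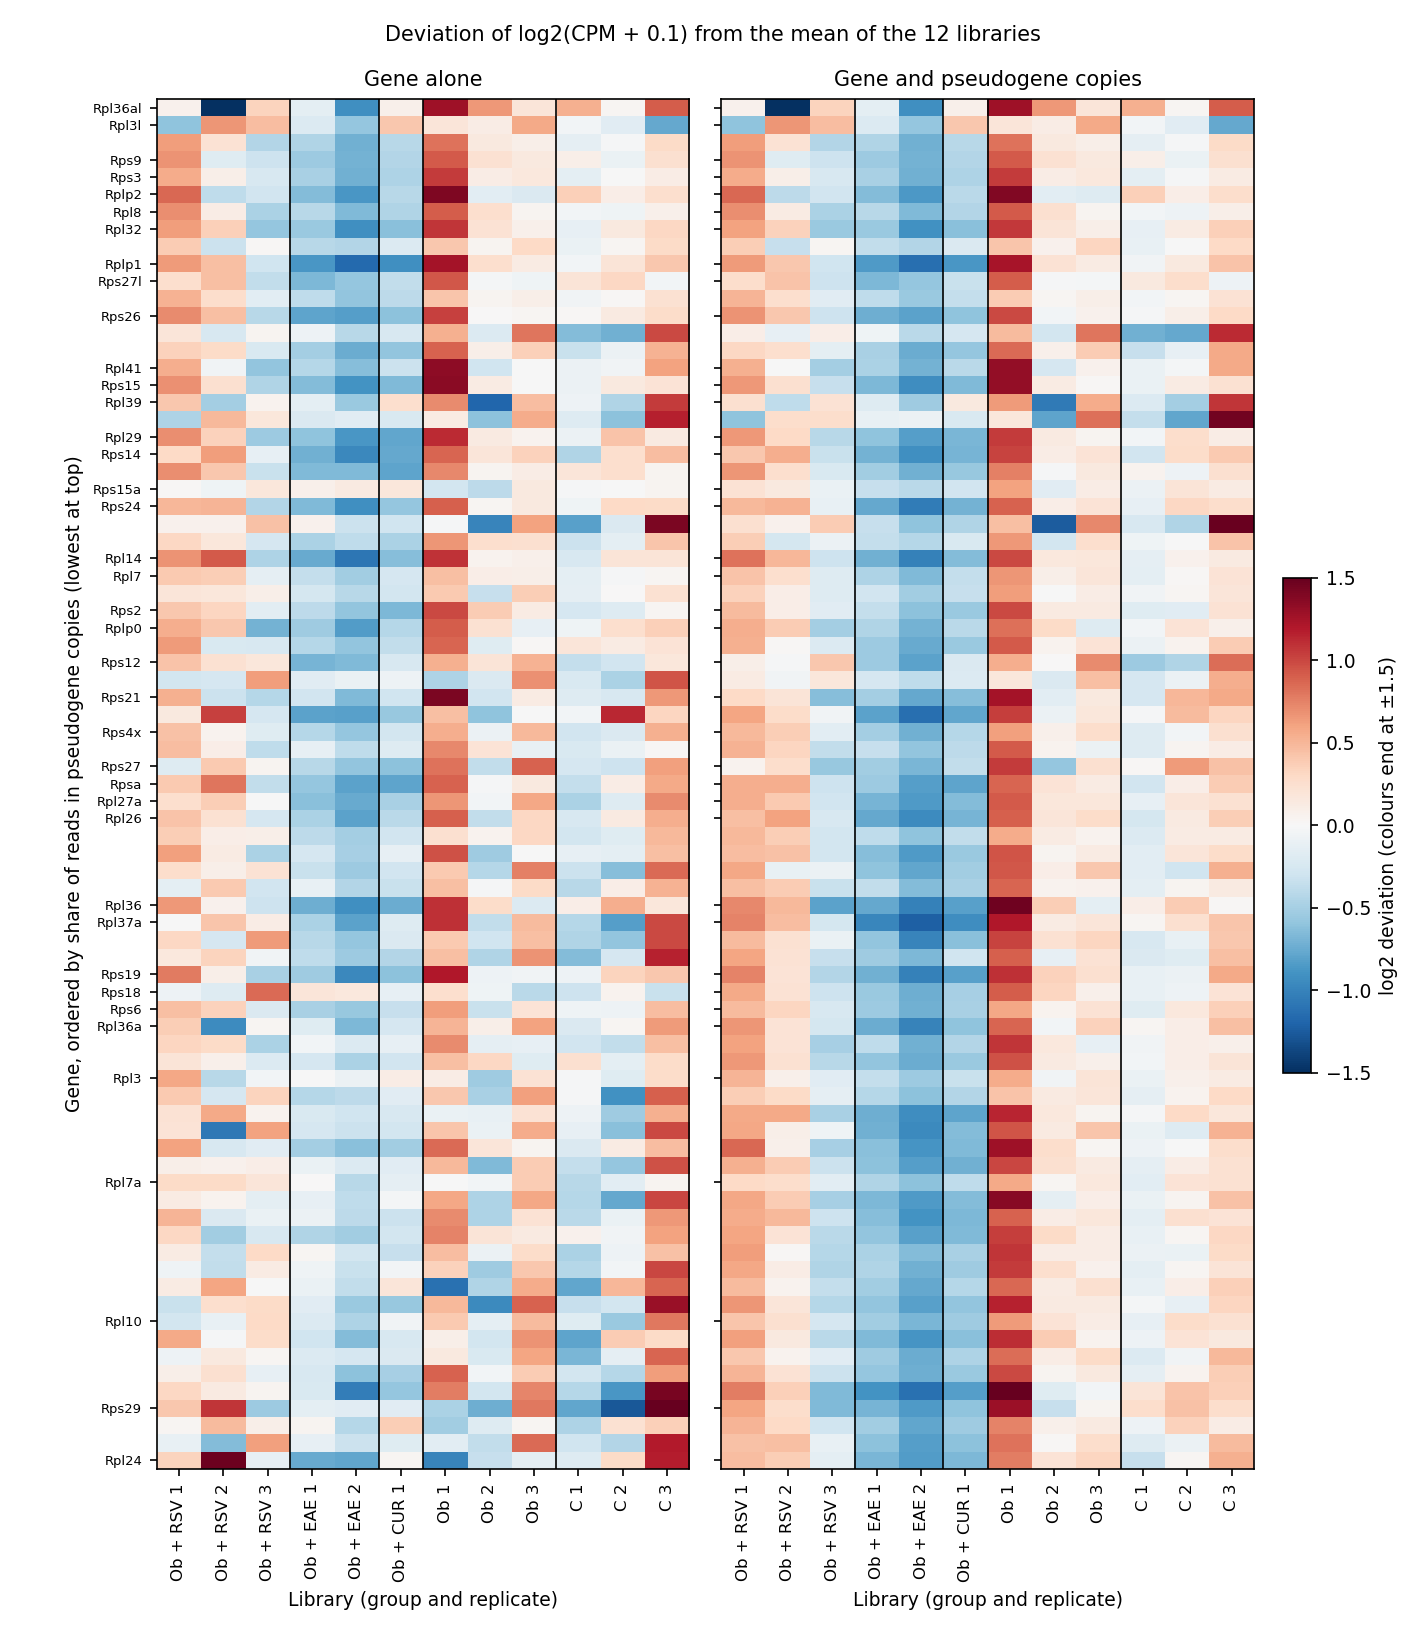
Deviation of log2(CPM + 0.1) from the gene's mean over the 12 libraries (colour, ending at 1.5 in either direction) for 79 ribosomal protein genes in rows, ordered by the share of their reads in pseudogene copies and labelled where the text names them, for the gene alone (left) and with its copies (right). On the right nearly every row is highest in Ob replicate 1 (71 of 79) and lowest in Ob + EAE replicate 2 (72 of 79), whereas on the left the lower rows peak in other libraries, often C replicate 3.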

How the data were processed

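The authors deposited whole read counts per gene for the 12 libraries (poly(A)-selected, stranded), made with HISAT2 and featureCounts on GRCm39. For the annotation release, strand setting and treatment of multiply matching reads, nothing is stated in those sources. Of 78334 IDs, 51486 (65.7%) matched a symbol, and biotypes, lengths and shared 50-base stretches came from GENCODE transcripts of another build, by ID. CPM per kb is CPM divided by transcript length.

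Counts were tested with edgeR 4.0.16 (glmQLFit, TMM, at least 10 reads in total, R 4.3.3), with Benjamini-Hochberg adjustment over all genes, and calls needed adjusted p below 0.05 with a log2FC of 1 or more in size. Ob vs. C, Ob + RSV vs. Ob and Ob + RSV vs. C used 9 libraries (6 residual degrees of freedom), and the comparisons of Ob + EAE used 12 (7), where the single Ob + CUR library adds none. The paper's methods give the C, Ob and Ob + RSV libraries as biological replicates. For Ob + EAE no source says so, and the spread between its 2 libraries may be technical. Its p-values rest on a spread pooled over the groups of the fit, to which C, Ob and Ob + RSV contribute more libraries. Counts were also simulated for Ob + EAE vs. Ob (36164 genes), with changes placed only in genes with at least 1000 reads. At an adjusted p below 0.05, without the log2FC cut, 46 of 100 genes changed by a log2FC of 1 were found. Of 100 genes changed by 2, 96 were found, with 12 false among 35964 genes. These counts were drawn independently for each gene, with the same spread in every group. In the data, genes moved together across libraries and the spread differed between groups. The simulation therefore does not measure how often calls in these data are wrong. The paper's own test, DESeq2 (1.42.0 here), other scalings, filters, left-out libraries and a replicate block were alternatives. Summed shares carry 95% Wilson intervals.

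Genes named are Rpsa, Rplp0, Rplp1, Rplp2 and Rps6, paralogs ending in l with their parents, X-linked genes, up to 5 with the smallest p per comparison, the 3 highest and 3 lowest per length, and the 3 with the widest spread. Some genes that this rule picks are not reported here. Others were named after their values were seen, to complete a count or to show the effect of copies. Members and lists were chosen with earlier results of these data known. Ob + EAE vs. C and the addition of pseudogene copies were chosen after seeing the data. Summaries used Python 3.11.15 (pandas 2.3.3) and figures matplotlib 3.10.9.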

Additional observations from a re-analysis of the deposited data

How the results depend on the processing

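In Ob + EAE vs. Ob, the 20 genes that passed became 24 with DESeq2, 16 with RLE or upper quartile scaling and 27 with at least 1 read. They became 28 with a replicate block, 2 with filterByExpr and 9 with the libraries of the 2 groups only. Over all genes, 389 passed as lower in the main fit. That number was 545 with DESeq2, 364 and 340 with RLE and upper quartile scaling and 551 with at least 1 read. It was 723 with a replicate block, 24 with filterByExpr and 269 with the 2 groups only. With pseudogene copies added 51 ribosomal protein genes passed, against 314 of all rows as lower. With copies and without Ob replicate 1, 0 of these genes passed. Without the 3 libraries with the fewest genes detected in their groups (C replicate 2, Ob replicate 1 and Ob + RSV replicate 2), 0 passed. Leaving out 1 library gave 0 to 27, and the cause was not tested. The median log2FC moved from −0.83 to −1.17 with the copies. In Ob + EAE vs. C, 4 genes passed with at least 1 read, against 78 of all genes as lower. With the 2 groups only 1 passed, against 11, and with a replicate block 14 passed, against 181. The median of Ob vs. C was −0.094 without those 3 libraries with the fewest genes detected. In Ob + RSV vs. Ob, the sign turned for Rps21, to 0.093 without Ob replicate 1 and 0.25 without the same 3 libraries. It also turned for Rpl41 (0.21 and 0.29 in the same settings) and for Rpl24 (−0.24 with copies). Leaving out 1 library gave −1.06 to 0.093 for Rps21 and −0.91 to 0.21 for Rpl41. The share of Ob + CUR, 0.366%, was 0.380% without mitochondrial genes, 0.370% without the largest gene, 0.395% over protein-coding genes only and 0.384% with the ribosomal proteins outside the naming rule. Deviations from the group mean correlated between −0.23 and 0.60 for libraries with the same number, not all over 0.1. The highest were 0.60 for replicate 3 and 0.54 for replicate 1 of Ob and Ob + RSV. Libraries with different numbers were not compared, so whether the numbers pair the libraries is not known. Genes under 20 CPM and groups of 1 to 3 libraries limit what can be detected.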
